A study of Mus musculus with 4 samples.

Results

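The genes described here encode subunits of the nuclear RNA polymerases I, II and III, the mitochondrial RNA polymerase, and the TATA box binding protein with its associated factors (TAFs), most of which make up TFIID. Their transcripts were measured in the small intestinal muscularis of mice in which Dicer had been deleted in smooth muscle cells. Members were the probe sets whose deposited annotation gave a single symbol for a polymerase subunit (Polr1, Polr2 or Polr3 with a letter, Polrmt, Znrd1), a numbered TAF or Tbp. A second condition of the rule, which removed symbols annotated to DNA repair or cell division, removed 0 genes. The rule gave 80 of 45101 probe sets and 44 of 20461 genes, and it used no measured value.

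RNA polymerase I transcribes the large ribosomal RNA precursor, RNA polymerase II the messenger RNAs and most microRNA precursors, and RNA polymerase III the transfer RNAs and other small RNAs. Several small subunits are shared between the enzymes. TFIID binds the core promoter through the TATA box binding protein and its TAFs and nucleates the assembly of the initiation complex, while SL1, a different complex of the same TATA box binding protein, serves RNA polymerase I. These genes are used by every cell type of the muscle wall, so that their level in bulk tissue mixes all of its cells, and fewer cells of a type cannot be told apart from less RNA per cell.

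The smDicer KO mice (smDicer-/-;Cre-GFP/+) carried a Cre-eGFP transgene under the smooth muscle myosin heavy chain (Myh11) promoter together with Dicer alleles that the study's genotype list gives as lox/Δ, a lox-flanked and a deleted locus, and its extended methods as lox/lox. Cre was thus directed to smooth muscle cells, and cells in which that promoter is not active were not targeted. The genotype list also gives a deleted locus in mice without the transgene and calls these heterozygous null. In lox/Δ animals the cells not targeted by Cre could thus carry a deleted Dicer allele as well. Both groups were about 3 weeks old, and 2 WT and 2 smDicer KO arrays were made, all from jejunum by their labels. The methods give WT mice as smMHC Cre-GFP/+, the genotype list calls several other genotypes wild type too, and the text on the arrays names its controls only as WT. The methods name the KO animals of the arrays as female and give no sex for the WT animals.

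Values are log2 intensities after robust multi-array averaging (RMA), where 1 unit is a 2-fold difference and values below about 6 lie near background, and differences are smDicer KO minus WT from limma. Arrays correlated with r between 0.953 and 0.992, and the medians of the arrays lay between 5.17 and 5.22. Smooth muscle transcripts were bright, with Myh11 between 13.26 and 13.76 and Acta2 between 14.25 and 14.46 on all arrays. Even so, the 10 transcripts of the smooth muscle list were all lower on average in smDicer KO, with a median difference of -0.46. For 9 of them both smDicer KO arrays lay below both WT arrays, where the share was 36.9% over all genes with a mean of at least 6. At an unadjusted p under 0.05 in limma, 3 of the 10 were lower, beside 15.8% of all such genes. The differences ran from -0.91 for Lmod1 (SE 0.33, limma adjusted p = 0.308) to -0.11 for Acta2. The 2 probe sets of Dicer1 were lower on both smDicer KO arrays (difference -0.51, SE 0.16, limma adjusted p = 0.271, and -0.49, SE 0.17, adjusted p = 0.302), although a 3′ probe can lie outside a deleted part. Transcripts of mucosal epithelium differed widely between arrays. All 17 of the list had a higher mean in smDicer KO, 14 of them with an unadjusted p under 0.05 in limma, where 7.19% of all genes were higher. Relative to the WT mean, their median stood at -0.88 in WT 1, 0.88 in WT 2, 3.43 in smDicer KO 1 and 6.14 in smDicer KO 2. The brightest of them on smDicer KO 2, Apoa1, measured 14.23 there, 12.41 in smDicer KO 1, and 5.96 and 9.82 in WT. On smDicer KO 2, Apoa1, Apoa4 (13.99) and Fabp2 (13.54) were above Myh11 (13.26), and the rest of the epithelial list was below it. The methods describe the muscle as stripped of mucosa. All 12 transcripts of dividing cells had lower means in smDicer KO, of which 0 reached an unadjusted p of 0.05, and their median stood at 0.45 in WT 1, -0.45 in WT 2, -1.40 in smDicer KO 1 and 0.078 in smDicer KO 2. All 8 interferon response transcripts had a higher mean, 5 of them with an unadjusted p under 0.05 and with a median difference of 3.00, and so did all 10 neuronal transcripts, 7 of them under 0.05 and with a median of 0.66. What part these differences had in the values of the polymerase and TAF genes was not tested.

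Most of the 44 genes had a slightly lower mean in smDicer KO muscle. Of the 44 genes, 34 had a lower mean and 10 a higher one, and the median difference was -0.20 on the log2 scale, beside -0.037 over all genes, of which 55.6% had a lower mean. Each gene was read from its brightest probe set. At an unadjusted p under 0.05 in limma, 6 genes were lower (Taf11, Polr2d, Taf1a, Polr2c, Polr2k and Znrd1) and 1 was higher (Taf10). Over all genes, 10.5% were lower and 7.19% higher by that rule, so 6 of 44 (13.6%) is near the background. Limma called 0 of 44 genes after Benjamini-Hochberg adjustment over 45037 probe sets, and the share of all probe sets called was 0%. With 2 arrays against 2, an exact permutation test of 1 gene cannot give a 2-sided p below 0.333, and the p values cover the spread between these arrays only.

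Among the 38 genes with a mean of at least 6, the median difference was -0.21, beside -0.067 over all genes above that level. The same 6 were lower and the same 1 higher, where 15.8% and 9.9% of all such genes were. By probe set, 12 of the 80 were lower and 1 was higher at an unadjusted p under 0.05, against 9.4% and 6.41% of all probe sets. Both smDicer KO arrays lay below both WT arrays for 21 of the 44 genes, or 47.7%, where the share was 30.2% over all genes. All 21 had a mean of at least 6, which is 55.3% of the 38, beside 36.9% of all genes at that level. Both smDicer KO arrays lay above both WT arrays for 4 of the 44 genes, Taf10, Polr2a, Taf1c and Taf15, where the share was 21.5% over all genes.

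The shift was larger on the second smDicer KO array. The median of the 44 genes against the WT mean was -0.14 on smDicer KO 1 and -0.24 on smDicer KO 2, while WT 1 stood at 0.028 and WT 2 at -0.028, and smDicer KO 2 was below smDicer KO 1 for 31 of the 44 genes. Over all genes the corresponding medians were -0.035 and -0.044, and over genes with a mean of at least 6 they were -0.027 and -0.12. smDicer KO 2 was also the array with the most epithelial transcripts, as given above, with the lowest smooth muscle transcripts (median of 10 against the WT mean -0.76, beside -0.16 in smDicer KO 1) and with 5.001 for the median of 9 pancreatic acinar transcripts, beside -2.17 in smDicer KO 1. Whether these bear on the difference between the 2 arrays was not tested.

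**Figure D1:**
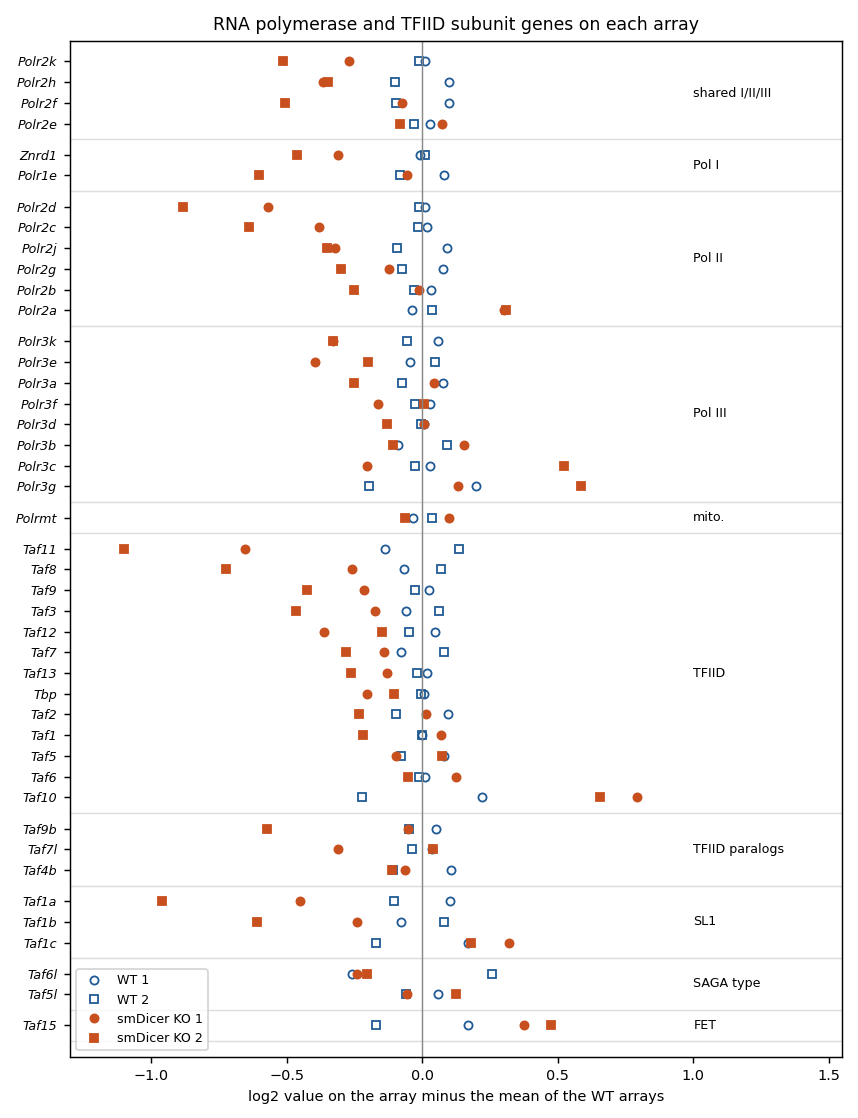
Log2 value of 43 of the genes on each array minus the mean of the WT arrays (horizontal axis), ordered by complex. Open symbols are WT and filled symbols smDicer KO, circles are replicate 1 and squares replicate 2. Both filled symbols lie left of both open ones for 20 of the genes drawn and right of them for 4.

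Among subunits shared by all 3 nuclear polymerases, the 4 genes present had a lower mean, with a median difference of -0.32. Polr2k, which encodes the smallest zinc-binding subunit of this group, measured 10.02 and 10.00 in WT and 9.74 and 9.50 in smDicer KO. The groups did not overlap, and the difference was -0.39 (SE 0.14, 1.31-fold lower, limma unadjusted p = 0.045, adjusted p = 0.309). Polr2h, which encodes a core subunit, was close behind with a difference of -0.36 (SE 0.14, adjusted p = 0.319), whereas the difference of Polr2e, another core subunit, was -0.0035 (95% interval -0.35 to 0.34). Polr2f overlapped between groups with a difference of -0.29.

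Znrd1 encodes the zinc ribbon subunit of RNA polymerase I, which acts in RNA cleavage. Its values were 8.83 and 8.85 in WT and 8.53 and 8.38 in smDicer KO. The WT arrays were almost the same and both smDicer KO arrays lay below them, with a difference of -0.39 (SE 0.13, 1.31-fold lower, limma unadjusted p = 0.034, adjusted p = 0.286). Polr1e, an RNA polymerase I subunit that binds next to the active core, differed by -0.33 with overlapping groups and a mean just under 6. The array names further RNA polymerase I subunits, the largest ones included, by older symbols, so they were outside the rule. Matched by gene ID, Rpo1-4 (Polr1a) differed by 0.076 and Rpo1-2 (Polr1b) by -0.056. Rpo1-1 (Polr1c) and Rpo1-3 (Polr1d) are both shared by RNA polymerases I and III. Rpo1-1 differed by -0.21 and Rpo1-3 by -0.50 (SE 0.13, limma adjusted p = 0.243). These older-named probe sets were looked up after the members' values were known.

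In RNA polymerase II, 5 of the 6 genes had a lower mean, and only the gene of the largest subunit had a higher one. At an unadjusted p under 0.05 in limma, 2 of the 6 were lower. Over all genes with a mean of at least 6, 57.3% had a lower mean and 15.8% were lower by that rule. A set of 6 genes is too small to set against these shares, and this was not tested. Polr2d, which encodes a subunit of the stalk, measured 8.88 and 8.85 in WT and 8.30 and 7.98 in smDicer KO. This was the lowest unadjusted p among the 44 genes, with a difference of -0.73 (SE 0.16, 1.65-fold lower, limma unadjusted p = 0.0076, adjusted p = 0.234). Its partner in the stalk, Polr2g, was only slightly lower, with a difference of -0.21 (95% interval -0.58 to 0.16). Polr2c, a subunit on which the enzyme is assembled, measured 9.64 and 9.61 in WT and 9.25 and 8.99 in smDicer KO. The groups were clearly apart, with a difference of -0.51 (SE 0.15, 1.42-fold lower, limma unadjusted p = 0.021, adjusted p = 0.258). Polr2j, the assembly partner of Polr2c, differed by -0.34 (SE 0.13, adjusted p = 0.327), again without overlap of the arrays.

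Polr2a encodes the catalytic largest subunit with the C-terminal repeat domain. It measured 9.73 and 9.80 in WT and 10.07 and 10.08 in smDicer KO, both above both WT arrays. The difference was 0.31 (SE 0.12, limma unadjusted p = 0.057, adjusted p = 0.327), and its second, dimmer probe set gave 0.047 with overlapping groups. Polr2b, the second largest subunit, which completes the active site, differed by -0.13 (95% interval -0.51 to 0.25), and its groups overlapped. The differences between subunits of the same enzyme were not tested against each other.

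Among the polymerases, RNA polymerase III had the most members, with 9 genes and 27 probe sets. On their brightest probe set, 0 of the 9 genes passed an unadjusted p of 0.05. The median difference was -0.079, with 6 genes lower and 3 higher. The largest subunits, Polr3a with -0.10 (95% interval -0.53 to 0.32) and Polr3b with 0.022 (95% interval -0.40 to 0.44), overlapped between groups. Polr3c and Polr3g, which together with Polr3f form the subcomplex used in initiation, differed by 0.16 and 0.36 with wide intervals, and Polr3g lay near background with a mean of 4.46. Polr3d, the partner of Polr3e, differed by -0.062 with overlapping groups.

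Polr3k, the zinc ribbon subunit of RNA polymerase III that acts in termination and RNA cleavage, is a case in which the choice of probe set decides the call. Its brightest probe set, 1456731_x_at, measured 8.35 and 8.23 in WT and 7.96 and 7.96 in smDicer KO, a difference of -0.33 (SE 0.12, limma unadjusted p = 0.0504, adjusted p = 0.317). The suffix of this probe set marks probes that may also match other transcripts. The next probe set, 1439266_a_at, measured 8.04 and 7.81 in WT and 7.09 and 7.15 in smDicer KO, a difference of -0.80 (SE 0.14, 1.75-fold lower, unadjusted p = 0.0033, adjusted p = 0.226 in limma). Probe set 1422752_at, with no such suffix, gave 7.87 and 7.74 against 7.27 and 7.19 and a difference of -0.57 (SE 0.13, adjusted p = 0.234 in limma). Probe set 1422753_a_at, whose mean of 5.80 lies just under 6, gave -0.74 (SE 0.18). These 4 probe sets agreed in direction without overlap of the arrays, and the remaining 2, with means of 2.40 and 3.22, lay near background.

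Other RNA polymerase III subunits also depended on the probe set. Polr3f had a difference of -0.079 on its brightest probe set and of -0.71 on 1439075_at (SE 0.17, limma adjusted p = 0.236), both with means just under 6. Polr3e, which takes part in initiation and termination, gave -0.30 on one probe set and 0.34 on the other, in each case without overlap of the arrays. In all, 23 of the 44 genes had more than 1 probe set and 12 of those had all in 1 direction. Counting only probe sets with a mean of at least 6, 11 genes had more than 1 and 8 of them had all in 1 direction.

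**Figure D2:**
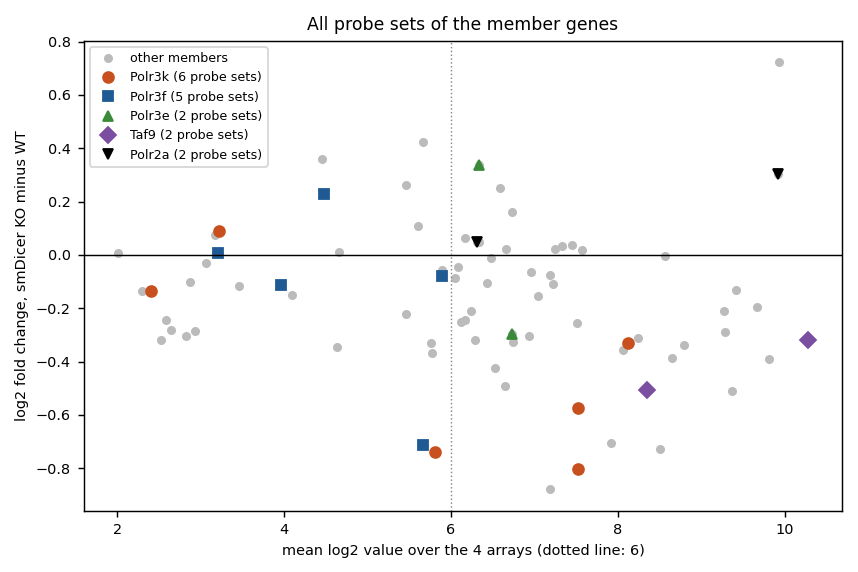
Difference between smDicer KO and WT (vertical axis, log2) against the mean log2 value over the 4 arrays (horizontal axis) for all 80 probe sets of the 44 genes, with 5 genes marked. The 4 brighter Polr3k probe sets lie between -0.80 and -0.33, while the probe sets of Polr3f and Polr3e scatter over both directions.

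Polrmt, the single-subunit polymerase of mitochondria, had about the same mean in both groups. It measured 7.52 and 7.59 in WT and 7.65 and 7.50 in smDicer KO, a difference of 0.017 (95% interval -0.33 to 0.37), and its second probe set gave 0.023.

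Of the 13 TFIID genes, 11 had a lower mean and 2 a higher one, and the median difference was -0.20. Tbp, the subunit that bends TATA box DNA, measured 7.12 and 7.11 in WT and 6.91 and 7.01 in smDicer KO, which gave a small difference of -0.15 (95% interval -0.48 to 0.17) without overlap of the arrays. Taf1, the largest subunit and scaffold, overlapped with a difference of -0.075 (95% interval -0.48 to 0.33). Taf5 and Taf6, which belong to the core of the complex, differed by -0.011 and 0.037. Taf2, which contacts promoter DNA, differed by -0.11 with overlapping groups, and Taf7, which binds Taf1, and the histone-fold subunit Taf12 by -0.21 and -0.25 without overlap.

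Taf11 had the largest difference in the set. This histone-fold subunit lies next to the TATA box binding protein. It measured 7.48 and 7.76 in WT and 6.97 and 6.52 in smDicer KO, a difference of -0.88 (SE 0.21, 1.84-fold lower, limma unadjusted p = 0.011, adjusted p = 0.240). Its histone-fold partner Taf13 differed by -0.20 (95% interval -0.53 to 0.14). Taf9, a histone-fold subunit also found in the SAGA coactivator, had 2 bright probe sets, with -0.32 (SE 0.14) and -0.51 (SE 0.14, limma unadjusted p = 0.016, adjusted p = 0.251), both without overlap.

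Taf10 was the exception. This histone-fold subunit is shared between TFIID and SAGA. It measured 9.79 and 9.35 in WT and 10.36 and 10.22 in smDicer KO, so the groups did not overlap although the SD of the WT arrays was 0.31. The difference was 0.72 (SE 0.19, 1.65-fold higher, limma unadjusted p = 0.017, adjusted p = 0.253). Its histone-fold partners in TFIID had lower means, Taf8 by -0.49 (SE 0.20, adjusted p = 0.338) and Taf3 by -0.32 (SE 0.16, adjusted p = 0.403), and these did not pass an unadjusted p of 0.05. Taf10 overlaps Ilk, the gene of integrin-linked kinase, in the RefSeq annotation, and the probe set of Ilk differed by -0.35 with overlapping groups. Such an overlap is not particular to Taf10, as Polr2k overlaps Spag1, Polr2c overlaps Dok4 and Taf11 overlaps Anks1.

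The remaining TAFs belong to other complexes. Taf1a, a subunit of SL1 for RNA polymerase I, measured 8.37 and 8.16 in WT and 7.81 and 7.30 in smDicer KO. All smDicer KO values were below those of WT, with a difference of -0.71 (SE 0.22, 1.63-fold lower, limma unadjusted p = 0.027, adjusted p = 0.271). Of the other SL1 subunits, Taf1b differed by -0.42 (SE 0.18, adjusted p = 0.347) and Taf1c by 0.25 (SE 0.17, adjusted p = 0.522). The TFIID paralogs Taf4b, Taf7l and Taf9b differed by -0.086, -0.13 and -0.31, and Taf7l, best known from the testis, was near background with a mean of 2.29. Taf5l and Taf6l of SAGA-type complexes differed by 0.035 and -0.22. Taf15, an RNA-binding protein of the FET family that also associates with TFIID, had a mean higher by 0.42 (SE 0.17, adjusted p = 0.327) on a dim probe set.

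**Figure D3:**
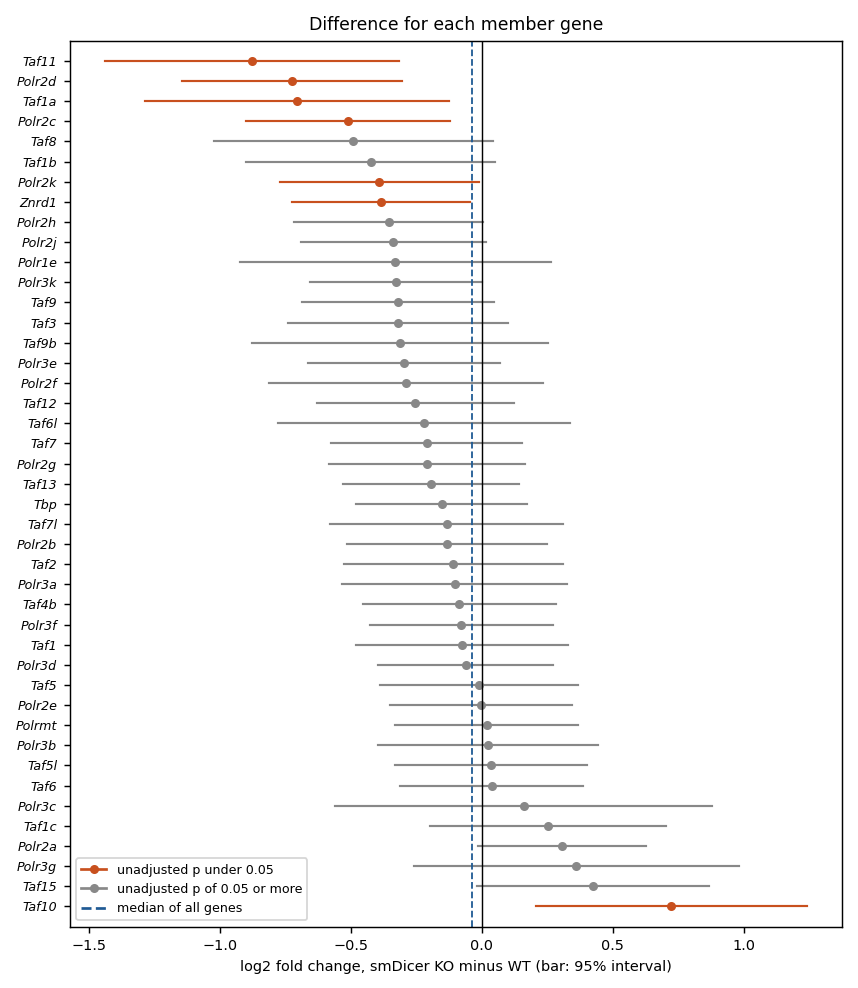
Difference between smDicer KO and WT (horizontal axis, log2) for 43 of the genes, with the 95% interval of limma's fit as a bar. Coloured genes had an unadjusted p under 0.05, 6 lower and 1 higher, grey genes did not, and the dashed line marks the median of all genes at -0.037.

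The calls rested on few arrays. Without WT 1 only Taf11 stayed lower at an unadjusted p under 0.05, with Taf10 and Taf15 higher, where the shares over all genes were 3.63% lower and 2.31% higher. Without WT 2 there were 0 calls in either direction, beside 3.53% lower of all genes. Without smDicer KO 1 there were 13 lower genes and 1 higher, Polr3c in place of Taf10, beside 14.2% and 11.2% of all genes. Without smDicer KO 2 there were 3 lower genes, Polr2c, Polr2d and Taf11, with Taf10 higher, beside 8.22% and 9.86%. The count of members was farther above that of all genes in other settings, with 11 of 44 lower beside 12.7% after centring on array medians and 10 of 44 beside 10.2% for the mean over the probe sets of a gene. The differences of the 7 called genes kept their sign in all 90 values under other settings, which in most of these settings was fixed in advance. Each of these genes had 1 probe set and groups that did not overlap, so only centring and cyclic loess could have changed the sign. Cyclic loess scaling gave 4 lower genes (Polr2c, Polr2d, Taf11 and Taf1a) and 3 higher ones (Taf10, Polr2a and Taf15), where over all genes the split turned from 10.5% lower and 7.19% higher to 7.77% lower and 9.89% higher, and the members' median was then -0.097.

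Other genes of the transcription machinery were taken as 7 chosen lists with 97 genes on the arrays, which do not cover all of it. Of these 97 genes, 76 had a lower mean and the median difference was -0.19. At an unadjusted p under 0.05, 23 of the 97 were lower and 2 higher, where the shares over all genes were 10.5% and 7.19%, and 15.8% and 9.9% over genes with a mean of at least 6, as nearly all of these had. The other general factors of RNA polymerase II had 15 of 15 genes lower, 9 of them at an unadjusted p under 0.05, beside the 15.8% of all genes with a mean of at least 6, and with a median of -0.40. Gtf2h4, a subunit of the helicase-bearing factor TFIIH, measured 7.61 and 7.76 in WT and 6.93 and 6.86 in smDicer KO, a difference of -0.79 (SE 0.13, limma adjusted p = 0.223), and Gtf2h5, the small TFIIH subunit, differed by -0.54, whereas Gtf2b, the factor that bridges TFIID and the polymerase, differed by -0.13 with overlapping groups.

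Mediator, the coactivator that joins activators to RNA polymerase II, had 22 of 29 genes with a lower mean and a median of -0.16, and an unadjusted p under 0.05 was reached by 6 lower genes (20.7%) and 0 higher ones, which is near the 15.8% of all genes with a mean of at least 6. Its largest called difference was that of Med21, with -0.71. Elongation and pausing factors were balanced, with 9 lower and 10 higher and a median of 0.013. In this list 2 were called in each direction, beside 15.8% lower and 9.9% higher over all genes with a mean of at least 6. Within that list Tcea3, a tissue-restricted elongation factor, differed by -1.01 (SE 0.18, limma adjusted p = 0.226). The 2 genes called higher, which were singled out after their values were seen, were Ell2, another elongation factor, with 0.92 (SE 0.12, limma unadjusted p = 0.00094, adjusted p = 0.215), and Ccnt2, a cyclin of the pause release kinase, with 0.48.

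RNA polymerase III factors had 15 of 18 genes with a lower mean and 3 called lower (16.7%), with a median of -0.22. Over all genes with a mean of at least 6, 57.3% had a lower mean and 15.8% were called lower, so 3 of 18 is near the background. Snapc1, a subunit of the complex that drives small nuclear RNA genes, differed by -0.83. RNA polymerase I factors had 5 of 5 with a lower mean and 1 called, Twistnb with -0.39, itself an RNA polymerase I subunit outside the symbol pattern. All 8 mitochondrial transcription factors had a lower mean and 2 were called, with Tfb2m, which melts mitochondrial promoters, at -0.66. The 3 regulators and relatives of the TATA box binding protein had 0 calls, with -0.24 for Btaf1 and -0.23 for Dr1.

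**Figure D4:**
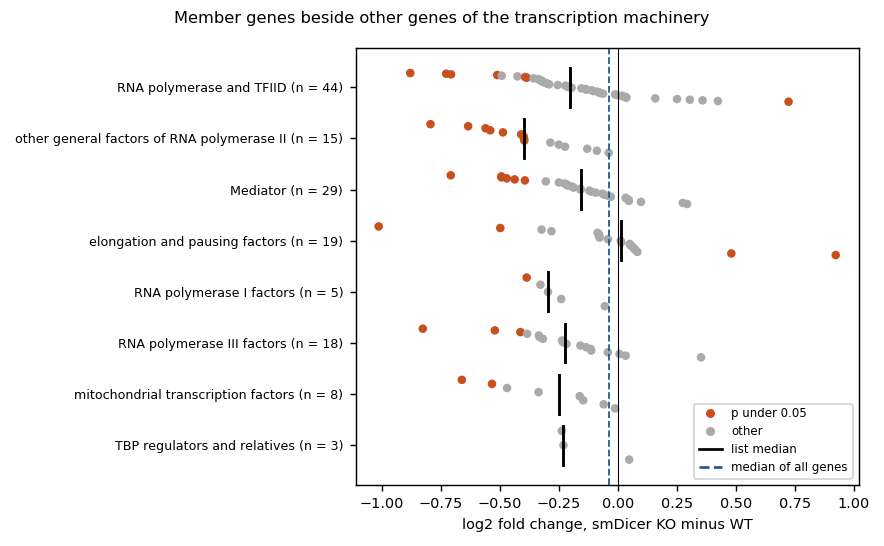
Difference between smDicer KO and WT (horizontal axis, log2) for the 44 genes in the top row and for each gene of the 7 other lists. Each point is 1 gene, coloured where the unadjusted p was under 0.05, black bars mark the median of each list, and the dashed line marks the median of all genes at -0.037. The bars run from -0.40 for the general factors of RNA polymerase II to 0.013 for the elongation factors.

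The promoters of the genes were read from RefSeq (GRCm38.p6), where 35 of the 44 genes were matched with 44 start sites, as 250 bases before each start. These promoters were rich in CG dinucleotides, with a median of 19 beside 12 for promoters of all genes on the arrays. Searched on both strands, CCGGAAG, the core letters bound by many ETS factors, lay in 13 of the 44 promoters or 29.5%, and in 10.2% of the promoters of genes on the arrays and 6.91% of all 32851 promoters. TATAAA, the TATA box letters, lay in 18.2%, beside 8.75% and 12.4%, and GGGCGG, a GC box, in 59.1%, beside 49.1% and 32.7%. The E-box CACGTG lay in 13.6% beside 7.50% and 6.02%, and CCAAT in 31.8% beside 34.8% and 33.9%. The CArG box, the serum response factor motif of smooth muscle genes, lay in 0 of 44, beside 1.23% and 1.47%. A match describes the letters only.

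Of the 6 genes that were lower at an unadjusted p under 0.05, 4 had matched promoters, and 2 of these 4 held each of CCGGAAG and TATAAA at some start. CCAAT, a motif in 34.8% of the promoters of genes on the arrays, lay in 4 of the 4, GGGCGG in 1, and CACGTG and the CArG box in 0. A promoter of each of the 4 genes is given with that of Taf10, which was higher, 5′ to 3′, ending at the base before the start. Only CCGGAAG and TATAAA matches, on either strand, are in capitals. That of Taf1a (chr1:183388635-183388884, plus strand, the first of 2 starts) holds CCGGAAG on both strands, beginning 50 and 64 bases before the start. Taf11 (chr17:27909243-27909492, minus strand, the first of 2 starts) holds it once, on the opposite strand, at 57 bases. Polr2c (chr8:94857200-94857449, plus strand) holds TATAAA at 151 bases, farther out than where a TATA box usually lies. Znrd1 (chr17:36958526-36958775, minus strand, the first of 2 starts), which was lower, and Taf10 (chr7:105744339-105744588, minus strand), which was higher, hold neither.
Taf1a: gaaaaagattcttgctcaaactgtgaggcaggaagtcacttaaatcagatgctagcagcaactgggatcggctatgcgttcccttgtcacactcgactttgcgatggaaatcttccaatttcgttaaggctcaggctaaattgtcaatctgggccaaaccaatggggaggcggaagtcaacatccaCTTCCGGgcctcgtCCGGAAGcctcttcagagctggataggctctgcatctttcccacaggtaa
Taf11: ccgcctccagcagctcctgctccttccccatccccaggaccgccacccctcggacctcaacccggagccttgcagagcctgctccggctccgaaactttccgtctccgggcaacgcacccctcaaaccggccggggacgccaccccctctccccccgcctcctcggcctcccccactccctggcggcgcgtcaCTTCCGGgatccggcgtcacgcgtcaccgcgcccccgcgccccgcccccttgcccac
Polr2c: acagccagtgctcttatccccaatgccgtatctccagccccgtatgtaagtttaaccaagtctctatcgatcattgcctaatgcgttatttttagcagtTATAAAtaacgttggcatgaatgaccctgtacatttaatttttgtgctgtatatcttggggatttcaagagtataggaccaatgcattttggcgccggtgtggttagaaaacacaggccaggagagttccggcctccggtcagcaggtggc
Znrd1: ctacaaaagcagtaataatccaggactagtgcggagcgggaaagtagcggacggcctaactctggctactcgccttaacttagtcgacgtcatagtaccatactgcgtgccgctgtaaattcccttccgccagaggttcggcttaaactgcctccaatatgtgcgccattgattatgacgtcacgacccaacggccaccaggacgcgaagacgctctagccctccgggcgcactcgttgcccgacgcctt
Taf10: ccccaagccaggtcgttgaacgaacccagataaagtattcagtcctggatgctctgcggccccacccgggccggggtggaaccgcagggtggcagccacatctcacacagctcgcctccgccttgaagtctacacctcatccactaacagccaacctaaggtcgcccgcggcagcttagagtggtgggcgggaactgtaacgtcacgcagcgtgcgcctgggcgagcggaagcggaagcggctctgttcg
CCGGAAG also lay in the promoters of genes with small differences, such as Polrmt (0.017), Polr3b (0.022) and Taf5l (0.035).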

How the data were processed

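Gene expression was measured in small intestinal muscularis on Affymetrix GeneChip mouse genome arrays, 1 array per sample. The authors normalized the arrays with RMA in Omicsoft Array Studio, whose version is not given in the sources used here, and deposited log2 values per probe set and array. Deposited columns of their own comparison, with fold changes and p-values, were not used. The log2 values were fitted as deposited with limma 3.58.1 (lmFit and eBayes, default settings, R 4.3.3), WT (n = 2) against smDicer KO (n = 2), without covariates, over 45037 probe sets after 64 control probe sets were left out. P-values were adjusted by the method of Benjamini and Hochberg over all of these. Arrays give no counts, so their number limits the precision. Each gene took the values of its brightest probe set, and 2005 probe sets that list more than 1 symbol, 5 of them with a polymerase or TAF symbol, as well as 6228 without a symbol, stood for no gene. Intervals are those of the moderated fit at 95%. Named members were the catalytic or defining subunits, the zinc ribbon subunits and the members with the largest differences at an unadjusted p under 0.05. The zinc ribbon subunits were named because the study lists them among its transcriptional regulators. It reports those regulators as dysregulated on these same arrays, so Znrd1 and Polr3k were not chosen independently of the data. Other members given with values were singled out after the values were seen. The members and lists were chosen with earlier results of these data known. Alternatives were the moderation of the variance, a filter at 6, array centring, cyclic loess, control probe sets, the replicate block, each array left out and the choice of probe set. The fit was first tested on simulated data. Python 3.11.15 was used for tables (pandas 2.3.3, numpy 2.4.6) and motif searches, with scipy 1.17.1 for intervals. A planned comparison of protein sequences was not run, and 1 member, which enters the counts, is not reported on its own here.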

Additional observations from a re-analysis of the deposited data

How the results depend on the processing

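The counts of 6 lower and 1 higher genes and the median of -0.20 stayed within 1.5 times or the spread between arrays in several settings. These were unmoderated variance, trended variance, the filter at 6, control probe sets kept and probe sets without a suffix. Unmoderated variance gave 4 lower genes, among them Polr2d, Polr3k and Znrd1, beside 7.09% of all genes. It gave 1 higher gene, Polr2a in place of Taf10, beside 3.73%. Taf11, Taf1a, Polr2c and Polr2k lost the threshold there, as did Taf10. Centring on array medians gave 11 lower genes, where 12.7% of all genes were lower, and the mean over probe sets 10, where 10.2% were. Cyclic loess gave 3 higher genes, 4 higher probe sets and a median of -0.097. With 1 array left out at a time, the group with 1 array being assumed to vary like the other, lower genes ranged from 0 to 13, higher genes from 0 to 2, the median from -0.24 to -0.14, lower probe sets from 2 to 19 and higher probe sets from 0 to 2. The adjusted count was 0 throughout. Of the 192 values of single named genes, 90 were of the 7 called genes, and all 26 values that lost the threshold were among these 90. Of the 192, 150 kept direction and side of the threshold, 6 gained it and 10 changed sign, all 10 in genes with differences near 0. These were Polr3b after centring (-0.019), without WT 1 (-0.068) and without smDicer KO 1, with a range of -0.11 to 0.15 over left-out arrays, and Polrmt after centring (-0.024), without WT 1 (-0.017) and without smDicer KO 1, with a range of -0.062 to 0.097. Taf1 changed sign with cyclic loess (0.017) and without smDicer KO 2 (range -0.22 to 0.070), and Polr3a as the mean over probe sets (0.012) and without smDicer KO 2 (range -0.25 to 0.042).

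With the replicate number as a block, 4 genes were lower (Polr2c, Polr2d, Taf11 and Taf1a) and 1 higher (Taf10), beside 8.92% and 7.63% of all genes, the adjusted count was 0, the median was -0.20, and 9 probe sets were lower and 1 higher. The deviations of same-numbered arrays correlated at 0.251 over probe sets, but 2 pairs with a shared number alone do not show pairing. Probe sets with a mean under 6 had too little signal over background to order small differences.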
